A study of Bos taurus with 8 samples.

Results

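Genes that bring fatty acids into muscle were measured in semitendinosus muscle, from the back of the thigh, of bulls from 3 cattle breeds. The set was chosen by function and held 10 genes: the fatty acid binding proteins FABP4, FABP3 and FABP5, the uptake receptor CD36, the lipase LPL, the lipoprotein receptor VLDLR, the transport proteins SLC27A1 and SLC27A4, and the acyl-CoA synthetases ACSL1 and ACSL3. A gene was taken as measured when a probe of the array carried one of its RefSeq transcripts and lay above background in at least 4 of 16 channel readings. This held for 8 of the 10 genes, among 6693 named genes measured in all. CD36 and ACSL3 were not analysed here. The 8 genes were each above background in all 16 readings.

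The animals were 4 Hereford, 4 Holstein-Friesian and 4 Limousin bulls, all aged 15 months. Hereford and Holstein-Friesian deposit more fat within muscle than the lean Limousin, and are called the marbled breeds below. RNA of each marbled bull was hybridised with RNA of 1 Limousin bull on a 2-colour Agilent array, giving 8 arrays. Slide 1 paired Hereford, labelled with Cy5, with Limousin, labelled with Cy3. Slide 2 had the dyes reversed, with Holstein-Friesian in Cy3. Each of the 4 Limousin bulls was read once on either slide, so the comparisons of the breeds with Limousin share their controls, and within each of them breed, dye and slide cannot be told apart.

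Fatty acids reach a muscle fibre either bound to albumin or as triglyceride in lipoproteins. LPL, held on the wall of the capillary, releases them from the triglyceride, and VLDLR binds the lipoproteins there. CD36 and the SLC27A proteins take fatty acids across the membrane, ACSL enzymes trap them as acyl-CoA, and the binding proteins carry them through the cytosol. FABP3 is the form of heart and slow muscle fibres, FABP4 that of fat cells, and FABP5 is found in many tissues, macrophages and epidermis among them.

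The 4 Holstein-Friesian channels were the dimmest, with a median intensity of 30.5 to 46.5 units above background against 63 to 139 in the other readings. Of 21475 probes, 13944 to 14826 were above background in Holstein-Friesian and 14932 to 17096 in the others. All 10 measured markers of skeletal muscle were above background in every reading. Of the 17061 probes tested, 1218 passed in Hereford, 1100 in Holstein-Friesian, 102 in the mean of the marbled breeds and 463 in the difference between them, at an adjusted p under 0.05. Centring each array on its median in place of loess moved the median of all probes to 0.10 in Hereford, -0.20 in Holstein-Friesian and 0.36 in their difference. It also changed the share of calls that were higher from 47.5% to 87.0% in Hereford, from 46.5% to 29.0% in Holstein-Friesian, from 53.9% to 23.1% in the mean and from 57.5% to 78.1% in the difference. With that setting 315 of the 17061 probes passed in Hereford, 6678 in Holstein-Friesian, 950 in the mean and 6219 in the difference.

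VLDLR fell in Holstein-Friesian and was the only one of the 8 genes to pass a breed comparison in the limma fit. None of the 8 passed in Hereford, where 7.14% of all probes passed. In Holstein-Friesian 1 of 8 passed, with 6.45% of all probes. In the mean of the marbled breeds 0 of 8 passed, with 0.598% of all probes, and in the difference between the breeds 0 of 8, with 2.71%. At an unadjusted p under 0.05, 1 gene stood out in Hereford, 2 in Holstein-Friesian, 2 in the mean and 0 in the difference, against 24.2%, 23.5%, 19.6% and 21.1% of all probes. The median log2 difference of the 8 genes was 0.23 in Hereford, with 6 genes higher and 2 lower, and -0.17 in Holstein-Friesian, with 1 higher and 7 lower. The median over all probes was 0.01 and -0.01.

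**Figure D1:**
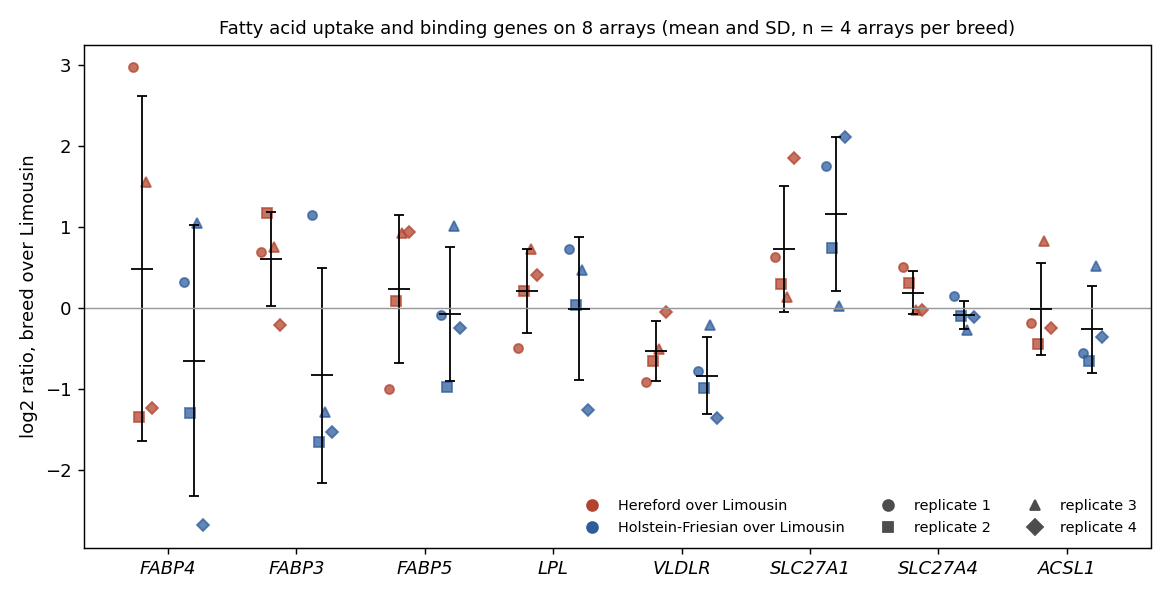
Log2 ratio of breed over Limousin (vertical axis) for the 8 measured genes, with 1 point per array, the bar at the mean and the whisker at 1 SD (n = 4 arrays per breed). After loess, VLDLR lies below 0 and SLC27A1 above 0 on all 8 arrays; with median centring each crosses 0 on 2 arrays. FABP4 spans 2.97 to -2.67.

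FABP4, the carrier protein of fat cells, differed more between bulls than between breeds. Its normalized log2 intensity was 11.14, 7.38, 9.0 and 8.99 in Hereford replicates 1 to 4, a range of 13.5-fold. In Holstein-Friesian it was 8.50, 7.39, 8.43 and 7.59, a range of 2.16-fold. The Limousin bulls stood at 8.17, 8.72, 7.44 and 10.21 in Cy3, and at 8.18, 8.68, 7.37 and 10.27 in Cy5. Hereford bull 1 was the highest of the 12 and Limousin bull 4 came next, and the 3 breeds overlapped.

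On the arrays, the log2 ratios of FABP4 to Limousin were 2.97, -1.34, 1.56 and -1.22 in Hereford. In Holstein-Friesian they were 0.32, -1.29, 1.06 and -2.67. Arrays 1 and 3 were above 0 and arrays 2 and 4 below 0 in both breeds, which share the Limousin bull of the same number. The mean was 0.49 ± 2.13 (SD, n = 4) in Hereford, with a 95% interval of -1.41 to 2.39 and an adjusted p of 0.789 by limma. It was -0.64 ± 1.67 (SD, n = 4) in Holstein-Friesian, with an interval of -2.54 to 1.26 and an adjusted p of 0.699. For the mean of the marbled breeds it was -0.08, with an interval of -1.90 to 1.75 and an adjusted p of 0.976. Each of these 3 intervals holds a change of more than 2-fold either way. The difference between the breeds was 1.14 ± 1.18 (SD, n = 4 pairs of arrays), and was above 0 in 3 of 4 pairs. The fit of breed means gave an interval of -1.55 to 3.82 and an adjusted p of 0.633, or 0.440 with the Limousin bull as a block. That fit leaves the arrays unpaired, so its interval and p do not measure the spread over pairs. In whole muscle, fewer cells of a type and less RNA per cell cannot be told apart.

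The SD of FABP4 over the 4 arrays was larger than that of 99.98% of all probes in Hereford and of 99.89% in Holstein-Friesian. The 4 Limousin bulls were each read in both dyes on different slides, and their FABP4 levels in Cy5 and Cy3 differed by -0.02 on average, with an SD of 0.06 and a largest difference of 0.07. The range between the same bulls, 2.83 log2 units, was 39.2 times the largest difference between readings. The size of that ratio depended on the normalization: with median centring, chosen after the values were seen, the readings differed by 0.27 on average with an SD of 0.21 and a largest difference of 0.49. The range between bulls was then 2.88, or 5.84 times as large.

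**Figure D2:**
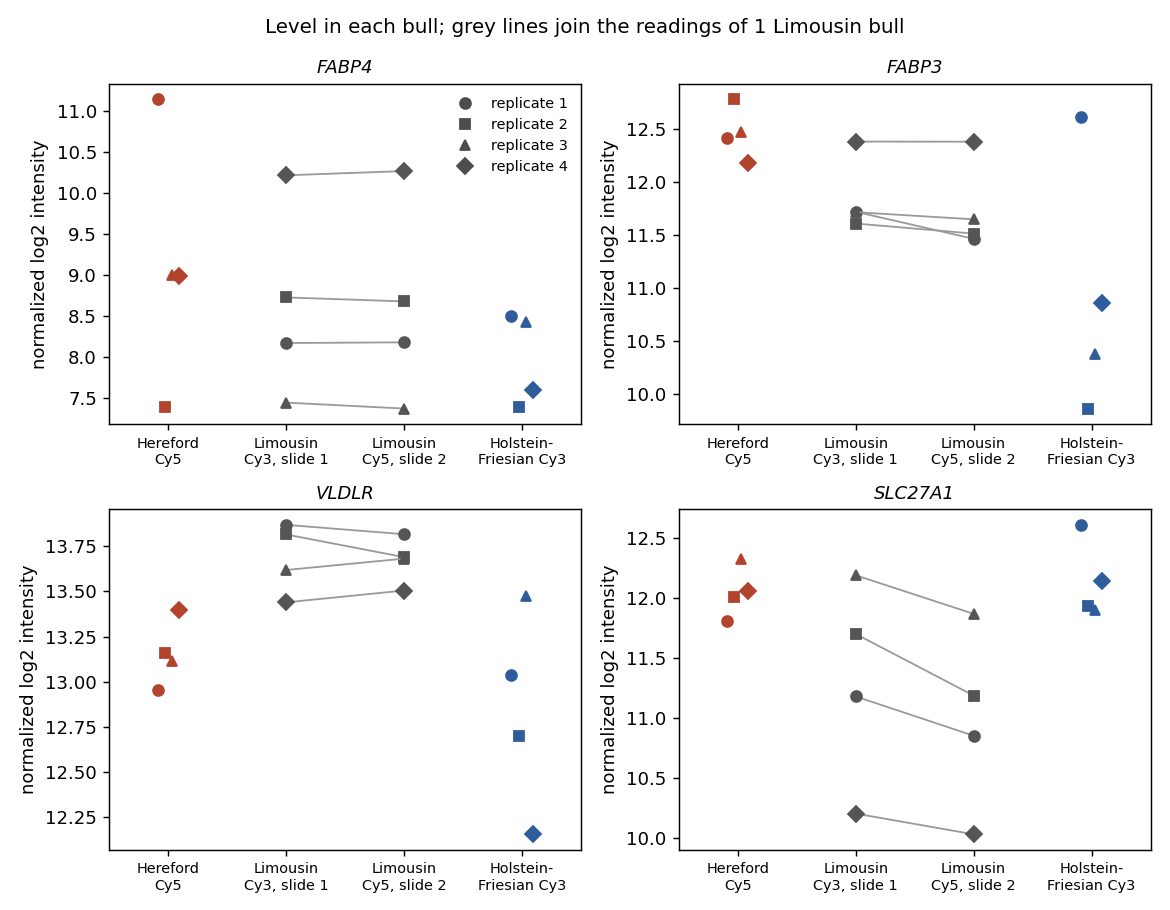
Normalized log2 intensity (vertical axis) of FABP4, FABP3, VLDLR and SLC27A1 in each bull, by breed, dye and slide. Grey lines join the readings of 1 Limousin bull; after loess, FABP4 lines are nearly flat, with differences of at most 0.07, and SLC27A1 lines all slope down.

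Adipocyte markers were measured as a list of 20 genes, of which 14 had a probe above background; ADIPOQ, the fat cell hormone adiponectin, was not among them. Their summed intensity was 31040 to 50325 in Hereford and 41525 to 53951 in Holstein-Friesian. Limousin bulls ranged from 36650 to 48927 when labelled with Cy3 and from 39986 to 45984 when labelled with Cy5. Hereford bull 1, highest for FABP4, had the highest sum of its breed. Limousin bull 4, next for FABP4, was at 48850 in Cy3 and at 39986, the lowest of its group, in Cy5. A sum of intensities follows its brightest probes, so the dimmer of the 14 markers weigh little in it. The order of the Limousin bulls by this sum did not repeat between readings. Bulls 1 to 3 were at 36650, 44984 and 48927 in Cy3 and at 45984, 42862 and 41777 in Cy5. The part of fat cell content in the FABP4 levels was not tested.

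Some fat cell genes followed FABP4 across arrays and others did not. The Pearson correlation of the log2 ratios over the 8 arrays, which share 4 Limousin bulls, is given as a description. Over 6692 named genes, the highest values with FABP4 were 0.93 for CDK3, a cyclin-dependent kinase, 0.93 for ATP6V1G2, a subunit of the proton pump of vesicles, 0.93 for CIDEC, which enlarges lipid droplets in fat cells, and 0.92 for FITM2, which takes part in lipid droplet formation. Without Hereford 1 and Holstein-Friesian 4, the arrays farthest from the FABP4 median, the values were 0.87, 0.88, 0.93 and 0.78. Of the 14 adipocyte markers, 5 had a correlation above 0.5, 5 lay between 0 and 0.5 and 4 were below 0. The median over the 14 was 0.19, and over all named genes 0.04.

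CIDEC showed the pattern most plainly among the markers, and it had the largest spread of the list. Its log2 ratios were 2.92, -0.92, 0.49 and -0.56 in Hereford, and 0.37, -1.30, 0.42 and -1.15 in Holstein-Friesian. The sign was that of FABP4 on all 8 arrays. The breed means of CIDEC, 0.48 and -0.41, did not pass (adjusted p of 0.702 and 0.737). PLIN1, a coat protein of the lipid droplet chosen after its values were seen, had a correlation of 0.83 with FABP4. CFD and SCD, which came next in spread, had SDs of 0.94 and 0.69 over the 8 arrays and correlations of -0.29 and 0.07 with FABP4. CIDEA had the lowest correlation of the 14 markers, -0.65.

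CFD, the secreted protease adipsin, rose in Holstein-Friesian by 1.17 (adjusted p = 0.0166) and stood at -0.41 in Hereford (adjusted p = 0.260). The difference between the breeds was -1.58 and passed (adjusted p = 0.0349). Holstein-Friesian array 4 had the lowest FABP4 ratio and the highest CFD ratio. CIDEA, a droplet protein related to CIDEC, fell in Holstein-Friesian by 0.42 (adjusted p = 0.0470), a call lost without any 1 replicate (adjusted p of 0.101 to 0.178). Median centring ended the CFD call (adjusted p = 0.0518), as did leaving out replicate 2, 3 or 4 (highest adjusted p = 0.114).

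Markers of macrophages and endothelium were read beside CFD and the 8 genes. All 6 measured macrophage markers were lower in Hereford (median -0.28) and higher in Holstein-Friesian (median 0.35), and 0 of them passed in a breed comparison. Hereford was in Cy5 and Holstein-Friesian in Cy3. The Limousin bulls in Cy5 minus Cy3 gave -0.32 for C1QA, -0.27 for CD68, -0.24 for AIF1 and -0.11 for CD14. The values were -0.01 for FCER1G and 0.05 for MSR1. For CD68 this offset was larger in size than the Holstein-Friesian value, 0.17. The summed intensity of the macrophage markers was 1811 to 3029 in Hereford against 2445 to 4913 in the Limousin bulls of the same slide. In Holstein-Friesian it was 3310 to 9700 against 1948 to 4046. Holstein-Friesian bull 4, with the highest CFD ratio and the lowest FABP4 ratio, had the highest macrophage sum. Its FABP4 level, 7.59, was not the lowest of its breed, since bull 2 stood at 7.39. Of 10 measured endothelial markers, 10 were higher in Holstein-Friesian (median 0.16) and 4 in Hereford (median -0.05), and 0 passed. The Limousin bulls in Cy5 minus Cy3 gave -0.66 for ESAM, -0.34 for EMCN, -0.23 for ENG and -0.18 for ROBO4. The Holstein-Friesian values of these genes, 0.38, 0.28, 0.21 and 0.09, were smaller in size than those offsets. TEK, CLDN5 and FLT1 had offsets of 0.33, 0.10 and 0.10, and KDR, TIE1 and ERG of -0.01, -0.11 and -0.17. The part of dye in the marker values was not tested. Nor was the part of macrophages and endothelium in the FABP4, FABP5, LPL and VLDLR values.

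**Figure D3:**
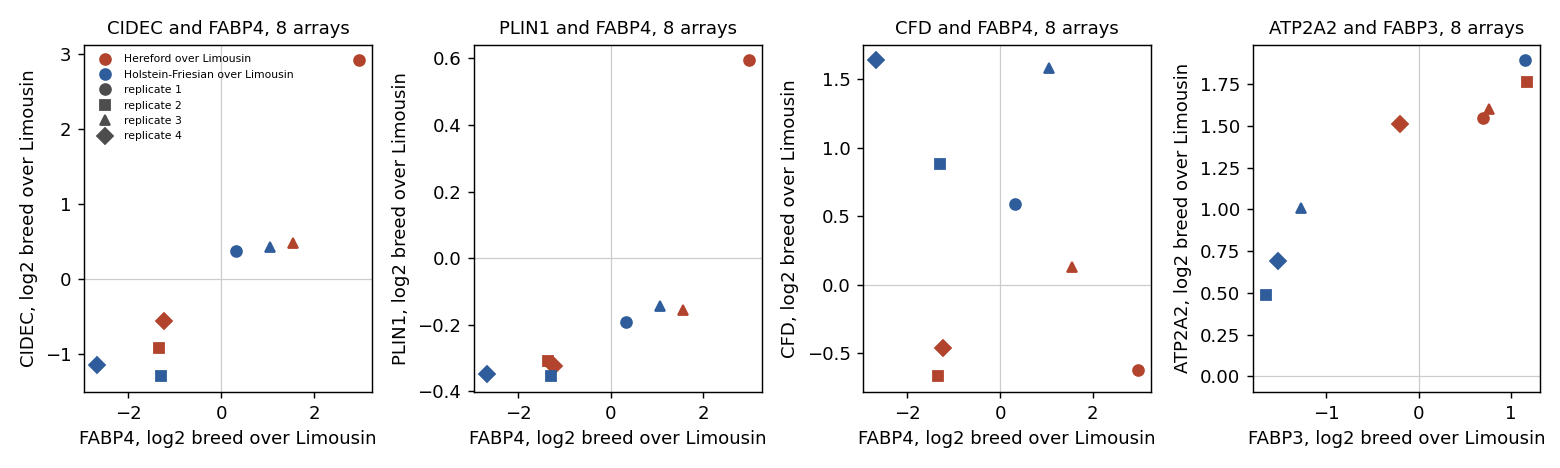
Log2 ratios of breed over Limousin on the 8 arrays, for CIDEC, PLIN1 and CFD against FABP4 and for ATP2A2 against FABP3 (1 point per array). CIDEC and FABP4 share their sign on all 8 arrays, and CFD is highest on the array where FABP4 is lowest, at -2.67.

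FABP3, the carrier of oxidative muscle fibres, was low in 3 of 4 Holstein-Friesian bulls. Its normalized log2 intensity was 12.62 in Holstein-Friesian bull 1 and 9.86, 10.38 and 10.86 in bulls 2 to 4. In Hereford it was 12.42, 12.79, 12.48 and 12.18. Limousin bulls stood at 11.72, 11.61, 11.72 and 12.39 in Cy3, and at 11.47, 11.52, 11.65 and 12.38 in Cy5. Holstein-Friesian bulls 2 to 4 lay below every Hereford and Limousin reading, and bull 1 lay above every Limousin reading, so the groups overlapped.

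The log2 ratios of FABP3 to Limousin were 0.69, 1.18, 0.76 and -0.20 in Hereford, with a mean of 0.61 ± 0.58 (SD, n = 4) and an adjusted p of 0.466 by limma. In Holstein-Friesian they were 1.15, -1.65, -1.27 and -1.52, with a mean of -0.82 ± 1.32 (SD, n = 4) and an adjusted p of 0.310. The Hereford mean exceeded the Holstein-Friesian mean by 1.43, with a 95% interval of -0.01 to 2.87 and an adjusted p of 0.240. Without replicate 1 the difference was 2.06 with an adjusted p of 0.0426, and the Holstein-Friesian mean was -1.48 with an adjusted p of 0.0348. Without replicate 2, 3 or 4 the difference was 0.96 to 1.47 and did not pass (adjusted p of 0.468 to 0.637). Nor did the Holstein-Friesian mean, at -0.67 to -0.55 (0.601 to 0.675). Over all probes, 457 passed in the difference without replicate 1, and 0, 24 and 0 without replicates 2, 3 and 4. The difference also passed with median centring, at 2.30 (adjusted p = 0.0377), as did 6219 of all probes.

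Slow fibre markers were read beside FABP3, since slow fibres are rich in it. All 8 measured markers of 10 listed were above background in every reading. Their summed intensity was 440596 to 662592 in Hereford against 198985 to 281541 in the Limousin bulls of the same slide. It was 422636 to 962538 in Holstein-Friesian against 246839 to 375412, and Holstein-Friesian bull 1, the high one for FABP3, had the highest sum. In Hereford 7 of the 8 markers were higher than Limousin (median 1.27), and CSRP3 was lower, at -0.20. In Holstein-Friesian all 8 were higher (median 0.95). MYH7, MYL2, MYL3 and ATP2A2, parts of the slow contractile machinery and its calcium pump, rose in Hereford by 1.18 to 1.98, with adjusted p of 0.00816 to 0.0470. TNNT1, TNNC1, MYOZ2 and CSRP3 did not pass there (adjusted p of 0.0662 to 0.869). With the Limousin bull as a block, MYH7 and MYL2 no longer passed (adjusted p of 0.0714 and 0.0569), nor did they with median centring (0.0657 and 0.0660). Against Limousin in the same dye the Hereford values were 0.73 for MYH7 (adjusted p = 0.0366), 0.98 for MYL2 (0.0543, so that call was lost), 2.15 for MYL3 (0.0103) and 1.16 for ATP2A2 (0.0377). ATP2A2 also rose in Holstein-Friesian by 1.02 (adjusted p = 0.0259). That call was lost with median centring, at 0.42 (adjusted p = 0.249), with the arrays of that breed alone (0.0809) and without replicate 2, 3 or 4 (0.0721 to 0.115). In the mean of the breeds ATP2A2 and MYH7 stood at 1.31 and 1.12 (adjusted p of 0.0458 for each). Neither passed when any 1 replicate was left out, with adjusted p of 0.0618 to 0.189 for ATP2A2 and 0.0904 to 0.189 for MYH7, and MYH7 did not pass with the block (0.0526). Without a filter on dim probes both calls were also lost (0.0549 and 0.0530). MB, the oxygen store myoglobin, and TNNC2, the fast fibre troponin C, fell in Holstein-Friesian by 1.02 and 0.68, with adjusted p of 0.0167 and 0.0187. Against Limousin in the same dye the values were -0.56 and -0.11 and did not pass (adjusted p of 0.114 and 0.477). The part of fibre type in the FABP3 values was not tested.

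ATP2A2 was also among the 4 named genes most like FABP3 over the 8 arrays, with a correlation of 0.96. The others were ITGA2B, an integrin of platelets, at 0.97, TBC1D22A at 0.96 and MAMDC4 at 0.95. Without Holstein-Friesian 2 and 4, the arrays farthest from the FABP3 median, the values were 0.95 for ATP2A2 and ITGA2B, 0.96 for TBC1D22A and 0.94 for MAMDC4. The ratio of ATP2A2 was 1.89 on Holstein-Friesian array 1 and 0.49, 1.01 and 0.69 on arrays 2 to 4. In Hereford it was 1.51 to 1.76. The arrays low for FABP3 were thus the arrays low for ATP2A2, although ATP2A2 stayed above Limousin on each of them after loess. With median centring it was at -0.20 on array 2.

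FABP5 showed no breed difference past the test. Its log2 ratios were -1.0, 0.09, 0.93 and 0.94 in Hereford, with a mean of 0.24 ± 0.92 (SD, n = 4; adjusted p = 0.772). They were -0.09, -0.97, 1.02 and -0.25 in Holstein-Friesian, with a mean of -0.07 ± 0.82 (SD, n = 4; adjusted p = 0.942). The levels of the 3 breeds overlapped, between 9.66 and 11.19. A dimmer probe of the gene gave -0.84, 0.08, 0.26 and 0.05 in Hereford, and -0.82, -1.30, 0.04 and -0.59 in Holstein-Friesian. Both probes were lowest on array 1 in Hereford and on array 2 in Holstein-Friesian, but the dimmer one was below the brighter by over 0.5 on arrays 3 and 4 of Hereford and 1 and 3 of Holstein-Friesian.

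LPL, the lipase that frees fatty acids at the capillary wall, varied most in Holstein-Friesian. Its log2 ratios were -0.48, 0.21, 0.74 and 0.41 in Hereford, with a mean of 0.22 ± 0.52 (SD, n = 4; adjusted p = 0.748). In Holstein-Friesian they were 0.74, 0.04, 0.47 and -1.26, and the mean was -0.0013 ± 0.88 (SD, n = 4; adjusted p = 0.998). The level in Hereford bulls spanned 1.22-fold, and that in Holstein-Friesian bulls 4.94-fold, from 10.27 in bull 4 to 12.57 in bull 1. Holstein-Friesian bull 4 was also the lowest of its breed for VLDLR.

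VLDLR, the receptor that binds triglyceride-rich lipoproteins at the capillary, was lower than Limousin on all 8 arrays after loess and on 6 of 8 with median centring. Its normalized log2 intensity was 12.96, 13.16, 13.12 and 13.40 in Hereford. In Holstein-Friesian it was 13.04, 12.70, 13.48 and 12.16. Limousin bulls stood at 13.87, 13.82, 13.62 and 13.44 in Cy3, and at 13.82, 13.69, 13.68 and 13.51 in Cy5. Neither marbled breed overlapped with Limousin on its own slide. With median centring Hereford did and Holstein-Friesian did not. The share of all probes without overlap was not counted, so these separations are a description only. Read in the same dye across slides, Hereford stayed below Limousin without overlap, whereas Holstein-Friesian bull 3, at 13.48, was above Limousin bull 4, at 13.44.

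The log2 ratios of VLDLR were -0.91, -0.65, -0.50 and -0.04 in Hereford, and -0.78, -0.99, -0.21 and -1.35 in Holstein-Friesian. The mean was -0.53 ± 0.37 (SD, n = 4) in Hereford and did not pass, with an adjusted p of 0.134 by limma. It was -0.83 ± 0.48 (SD, n = 4) in Holstein-Friesian and passed with an adjusted p of 0.0412, a fall of 0.83 on the log2 scale. With the Limousin bull as a replicate block the adjusted p was 0.0555, so the call was lost. It was also lost without a filter on dim probes (0.0532), with the arrays of that breed alone (0.0751) and without any 1 replicate (0.0562 to 0.196). The mean of both breeds was -0.68 ± 0.23 (SD, n = 4 bulls), with an adjusted p of 0.0564. The difference between the breeds was 0.30 (adjusted p = 0.569). Median centring put Hereford arrays 3 and 4 at 0.05 and 0.32 and the Hereford mean at -0.18 (adjusted p = 0.654). With that setting the Holstein-Friesian mean was -1.49 (adjusted p = 0.00401), and the mean of both breeds, -0.84, and the difference, 1.31, also passed (adjusted p of 0.0203 and 0.0201). Over all probes, 6678 then passed in Holstein-Friesian, 950 in the mean and 6219 in the difference.

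SLC27A1, a fatty acid transport protein of muscle and fat, was higher than Limousin on all 8 arrays after loess and on 6 of 8 with median centring. Its log2 ratios were 0.63, 0.31, 0.13 and 1.86 in Hereford, and 1.76, 0.75, 0.03 and 2.12 in Holstein-Friesian. The mean was 0.73 ± 0.78 (SD, n = 4; adjusted p = 0.285) in Hereford and 1.16 ± 0.95 (SD, n = 4; adjusted p = 0.110) in Holstein-Friesian. The mean of both breeds was 0.95, with an adjusted p of 0.215. None of these passed. With median centring Holstein-Friesian array 3 was at -1.05 and array 2 also lay below 0, and the means were 0.98 in Hereford and 0.53 in Holstein-Friesian (adjusted p of 0.228 and 0.326).

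The marbled bulls lay close together in SLC27A1, at 11.81, 12.004, 12.32 and 12.06 in Hereford and at 12.61, 11.94, 11.90 and 12.14 in Holstein-Friesian. Limousin bulls stood at 11.18, 11.70, 12.19 and 10.20 in Cy3, and at 10.85, 11.18, 11.87 and 10.03 in Cy5. The SD of the level was 0.21 in Hereford, 0.33 in Holstein-Friesian and 0.81 in Limousin. Limousin bull 4 was the lowest in both dyes and bull 3 the highest. Holstein-Friesian did not overlap with Limousin on its own slide, and Hereford did. As for VLDLR, the share of all probes without overlap was not counted. In the same dye across slides, and on the same slide with median centring, both breeds overlapped with Limousin.

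SLC27A1 was also the only one of the 8 genes called in the dye check, with 4.71% of all probes called there. The 4 Limousin bulls read 0.33 lower in Cy5 on 1 slide than in Cy3 on the other (adjusted p = 0.0482), in all 4 bulls. With median centring the value was 0.11 and did not pass (adjusted p = 0.557). Set against Limousin in the same dye across slides, Hereford stood at 1.07 (adjusted p = 0.146) and Holstein-Friesian at 0.83 (adjusted p = 0.228). The order of the breeds thus turned, and their difference went from -0.43 to 0.24; it did not pass in either form (adjusted p of 0.699 and 0.835). For FABP4, FABP3 and VLDLR the dye check gave -0.02, -0.10 and -0.01, and 0.27, 0.33 and 0.49 with median centring.

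SLC27A4, a related transport protein, had the smallest spread of the 8 genes in both breeds. Its log2 ratios were 0.51, 0.31, -0.02 and -0.02 in Hereford, and 0.15, -0.10, -0.27 and -0.11 in Holstein-Friesian. The means were 0.19 ± 0.26 (SD, n = 4; adjusted p = 0.313) and -0.08 ± 0.17 (SD, n = 4; adjusted p = 0.708). The 95% intervals, -0.05 to 0.44 and -0.32 to 0.16, were the narrowest among the 8 genes. The difference between the breeds was 0.27 ± 0.14 (SD, n = 4 pairs of arrays), above 0 in 4 of 4 pairs. It did not pass in the fit of breed means, which leaves the arrays unpaired (adjusted p = 0.339). Nor did it with the Limousin bull as a block (0.167). These p-values do not measure the spread over pairs, and a paired test was not run. With median centring the Holstein-Friesian mean was -0.43 and the difference 0.84, and both passed (adjusted p of 0.0433 and 0.0198). So did 6678 and 6219 of all probes in those comparisons. The Limousin bulls spanned 0.31 between animals, less than the largest difference between readings of 1 bull, 0.42, so the order of these bulls was not resolved.

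ACSL1, which turns fatty acids into acyl-CoA for storage or oxidation, gave a mean of -0.01 ± 0.57 (SD, n = 4; adjusted p = 0.991) in Hereford. The ratios were -0.18, -0.44, 0.83 and -0.24. In Holstein-Friesian they were -0.56, -0.65, 0.53 and -0.35, with a mean of -0.26 ± 0.54 (SD, n = 4; adjusted p = 0.583). Array 3 was the only one above 0 in both breeds after loess. With median centring it was at -0.66 in Holstein-Friesian, and Hereford arrays 1 and 4 also lay above 0. The arrays with that number carry Limousin bull 3, the lowest of its breed for ACSL1 in both dyes, at 13.11 and 12.97. The difference between the breeds was 0.25 ± 0.12 (SD, n = 4 pairs of arrays), above 0 in 4 of 4 pairs. It did not pass in the fit of breed means, which leaves the arrays unpaired (adjusted p = 0.735), nor with the block (0.565). These p-values do not measure the spread over pairs, and a paired test was not run. With median centring the Hereford mean was 0.35, and the Holstein-Friesian mean, -0.91, and the difference, 1.26, passed (adjusted p of 0.0231 and 0.0272). Over all probes, 6678 then passed in Holstein-Friesian and 6219 in the difference.

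**Figure D4:**
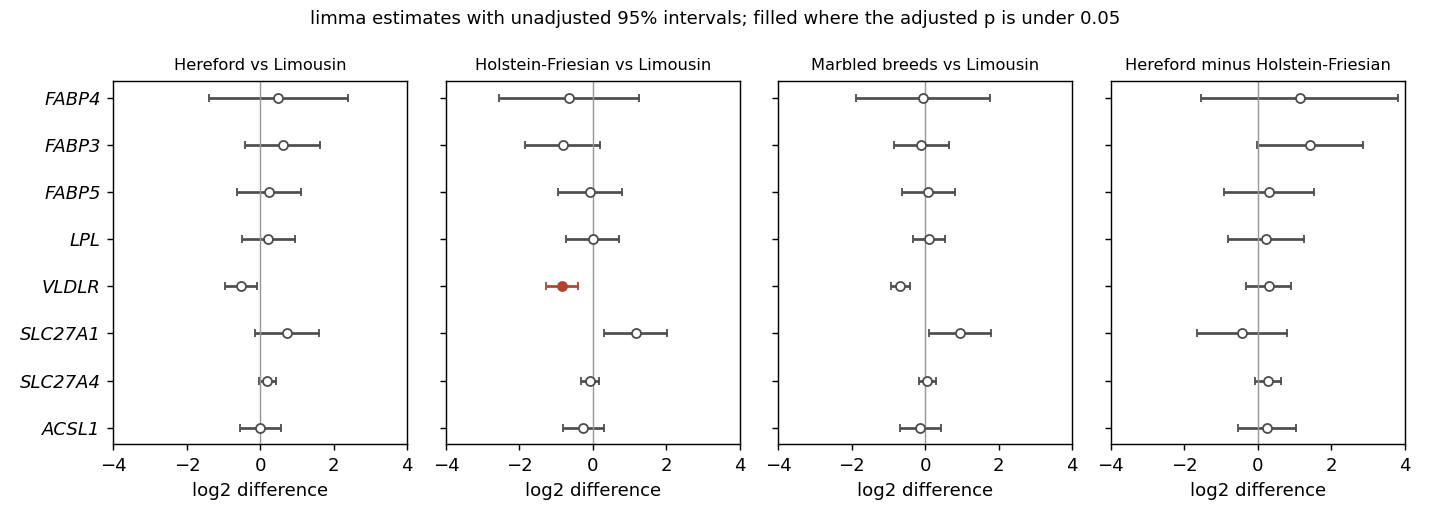
Log2 differences (horizontal axis) of the 8 genes in 4 comparisons, with points at the limma estimate and bars at the unadjusted 95% interval. The filled point, VLDLR in Holstein-Friesian at -0.83, is the only one with an adjusted p under 0.05; FABP4 has the widest intervals.

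The median SD of the 8 was 0.57 in Hereford and 0.85 in Holstein-Friesian, against 0.24 and 0.18 over all probes. The 8 genes were above background in all 16 readings, as were 12961 of the 17061 probes, so the comparison includes dimmer probes. In Hereford 5 of 8, and in Holstein-Friesian 7 of 8, had an SD above that of 90% of probes; with Agilent's processed signals 2 and 5 did. SLC27A4 had the smallest SD in both breeds, larger than that of 55.3% and 48.8% of probes. Over the Limousin bulls, the SD between dye readings was 0.06 for FABP4, 0.09 for VLDLR, 0.11 for FABP3 and 0.30 for FABP5, the largest.

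**Figure D5:**
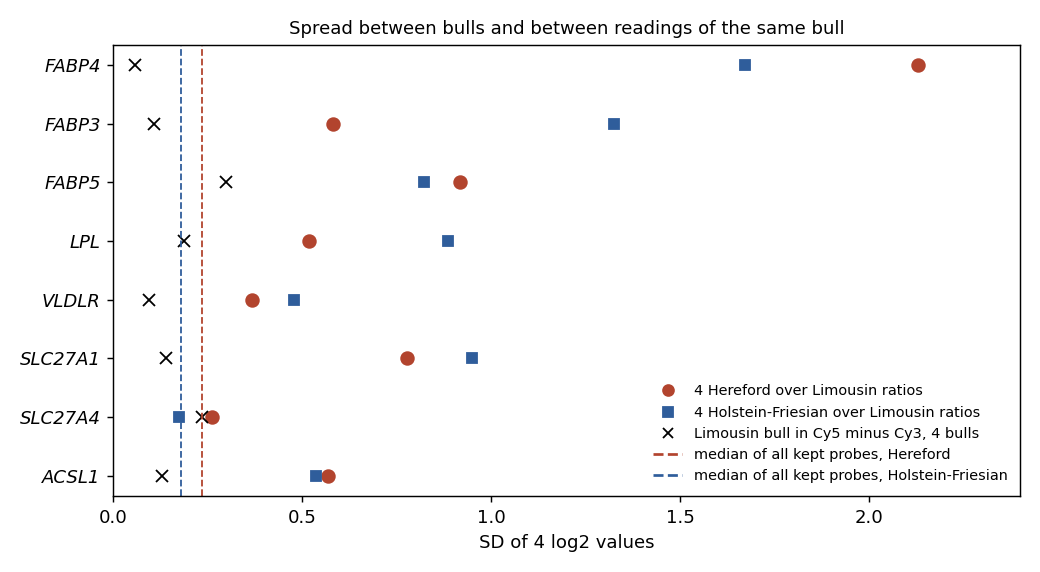
SD of 4 log2 values (horizontal axis) for each of the 8 genes: ratios in Hereford, ratios in Holstein-Friesian, and the difference between dyes in the same Limousin bulls. Dashed lines mark the median SD of all probes, 0.24 and 0.18; after loess, FABP4 has the largest SD between arrays and the smallest between readings. With median centring its SD between readings is 0.21, above the 0.10 of SLC27A4.

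The genes did not move as 1 block across the arrays. Of the pairs among the 8, FABP5 with VLDLR had the highest correlation of log2 ratios, 0.80, followed by FABP3 with SLC27A4 at 0.75 and LPL with VLDLR at 0.73. FABP4 had 0.44 with FABP3 and 0.02 with FABP5. SLC27A1 was below 0 with all of the other genes, and lowest with ACSL1, at -0.57. These 8 points share 4 Limousin bulls, and are a description only.

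Other genes of fatty acid uptake were read from 4 lists of 46 genes, of which 27 were measured. In Hereford 1 rose and 1 fell. In Holstein-Friesian, in the mean of the breeds and in the difference 0 of 27 passed in limma; the background shares are those given above. The median over the 27 was 0.05 in both breeds, against 0.01 and -0.01 over all probes.

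Among cytosolic carriers, 6 of 10 were measured and 0 passed. DBI, which binds acyl-CoA, stood at 0.52 in Hereford (adjusted p = 0.0515; 0.0466 with the Limousin bull as a block) and -0.08 in Holstein-Friesian. ACBD4, of the same family, stood at 0.21 and 0.31. Among other transporters and synthetases 5 of 10 were measured and 0 passed. SLC27A5, best known from liver, stood at 0.18 and -0.01, and ACSS2, which activates acetate, at 0.13 and 0.13.

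Among cofactors and inhibitors of the lipase and receptors of lipoproteins, 9 of 17 were measured and 0 passed. LRP8, a receptor related to VLDLR, stood at -0.14 in Hereford and -0.13 in Holstein-Friesian. ANGPTL4, an inhibitor of LPL chosen after its values were seen, had ratios of 0.37, 1.45, 0.76 and 1.08 in Hereford. In Holstein-Friesian they were -0.71, -1.87, 0.49 and -2.55. All 4 Hereford arrays were above 0 and 3 of 4 Holstein-Friesian arrays below, and the difference of 2.08 did not pass (adjusted p = 0.108).

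Among regulators, 7 of 9 were measured. PPARGC1A, a coactivator of oxidative metabolism, rose in Hereford by 1.53 (adjusted p = 0.0353), with ratios of 0.48, 1.59, 2.26 and 1.80. It stood at 0.65 in Holstein-Friesian (adjusted p = 0.292), and the difference of 0.88 did not pass (adjusted p = 0.334). Its call was lost with median centring (0.0570), with the arrays of that breed alone (0.0896) and without replicate 2, 3 or 4 (0.113 to 0.155). PPARD, a fatty acid receptor of muscle, fell in Hereford by 0.36 (adjusted p = 0.0272) against Limousin in the other dye. Against Limousin in the same dye it stood at 0.14 (adjusted p = 0.436), so its sign turned; dye and slide cannot be told apart here. PPARG, the regulator of fat cell genes, stood at 0.08 and 0.14 and did not pass.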

How the data were processed

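Total RNA of muscle, extracted with Trizol per the labels' protocols, was read on 8 arrays of 12 bulls, 1 per animal and dye. The submitters' processing notes name Agilent Feature Extraction 10.7.3.1, as do the headers of the scanner output. The deposited intensity of a spot and of its local background is a median over pixels. A deposited processed intensity, with background subtracted and dyes normalized by that software, was an alternative. A deposited table gave log10 of Cy5 over Cy3 and matched the scanner's log ratio in 44407 of 44407 spots. Other columns used were flags per the file headers. All value columns were mapped (0 left).

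Signals were corrected with normexp (offset 50) and loess (span 0.3, controls without weight) using limma 3.58.1 under R 4.3.3, with statmod 1.5.0 for the block, and plots were drawn with matplotlib 3.10.9. Control and outlier spots were left out and 0 spots were saturated. Spots of 1 probe were averaged to 21475 probes, and 17061 with at least 4 of 16 readings above background (at least a share of 0.5 of spots) were kept. Ratios are log2 of breed over Limousin. Levels are single channels after Aquantile. Marker sums add the levels of different probes, and apart from them no probe's level is set against another's. Symbols came from RefSeq's annotation of ARS-UCD2.0 (7079 kept probes, 6693 genes) through the transcript of each probe, for names only, since the array annotation follows Btau_3.1 per the file headers. The brightest kept probe stood for its gene.

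Breed means were fitted together over 8 arrays with limma. An SD given with a difference between the breeds is over the 4 pairs of arrays, which this fit does not pair. The block uses 1 correlation for all probes. The mean of the marbled breeds used 4 values, 1 per Limousin bull. The dye check is each Limousin bull in Cy5 minus Cy3. Tests were two-sided, with Benjamini-Hochberg adjustment over all kept probes and a call under 0.05, and the steps were tested on simulated data. The number of arrays limits the precision. The labels give each Limousin bull on both slides, so equal replicate numbers are paired through the same animal; deviations of paired arrays from the breed means correlated at 0.0987 to 0.500. Slide and dye were not separable from breed. Alternatives were median centring, processed signals, the deposited table, other filters, mean of probes, the Limousin bull as a block, arrays of 1 breed alone, the same dye across slides, and leaving out each replicate.

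The genes and lists were chosen with earlier results of these data known. Genes named are the 10 of the set; in pathway lists those that passed plus the 2 with the smallest p in the mean of the breeds; the 4 most correlated with FABP4 and FABP3; the 3 adipocyte markers of largest spread; and marker genes that passed. A gene chosen by these rules is not reported here. Of markers of endothelium (10 measured), macrophages (6) and blood (3), 0 passed in a breed comparison.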

Additional observations from a re-analysis of the deposited data

Results flagged for a closer look

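Of 48 groups of 4 values tested for a value that stands apart (Dixon's test at the 95% level), 3 stood out. Chance flags about 1 in 20 such groups. The FABP3 ratio of Holstein-Friesian array 1, at 1.15 against -1.65 to -1.27 on the other arrays of the breed, had a gap of 0.865 of the range. The FABP3 level of Limousin bull 4 in Cy3, at 12.39 against 11.61 to 11.72, had a gap of 0.856. The FABP5 level of Holstein-Friesian bull 3, at 10.93 against 10.03 to 10.18, had a gap of 0.831.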

How the results depend on the processing

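Across the alternatives, 370 of 424 values of the 8 genes kept their direction and their side of the threshold, 34 changed sign, 10 lost a call and 10 gained one. Many could not change sign. The block, the filters and the arrays of 1 breed alone leave the log2 value as it was. So does the same dye in the mean of the breeds, and the mean of probes for all genes but FABP5. Processed signals and the deposited table hold the same ratios. With median centring, 6678 of the 17061 probes were called in Holstein-Friesian, 950 in the mean of the breeds and 6219 in the difference. The number of the 8 genes called rose there to 3 in Holstein-Friesian, 1 in the mean and 4 in the difference. It fell to 0 in Holstein-Friesian with no filter on dim probes, with the replicate block (Limousin bull, correlation 0.305) and with the arrays of that breed alone. It was 1 in the mean with probes above background in all 16 readings. The replicate block changed no other call among the 8 genes. Leaving out 1 replicate gave 0 to 1 in Holstein-Friesian, 0 to 1 in the difference and 0 to 3 in the dye check. Over all probes the calls were then 78 to 810, 0 to 457 and 0 to 5663.

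Signs turned with median centring for ACSL1 in Hereford (0.35), for FABP5, LPL and SLC27A4 in the mean of the breeds (-0.10, -0.077 and -0.0079), for SLC27A1 in the difference (0.45), and in the dye check for FABP4, FABP3, VLDLR and SLC27A1 (0.27, 0.33, 0.49 and 0.11). In the same dye across slides they turned for ACSL1 and PPARD in Hereford (0.048 and 0.14), LPL and SLC27A4 in Holstein-Friesian (0.070 and 0.0043) and SLC27A1 in the difference (0.24). The mean of both probes turned FABP5 in the mean of the breeds (-0.15).

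Leaving out 1 replicate also turned signs. In Hereford, FABP4 ranged from -0.34 to 1.10 and ACSL1 from -0.29 to 0.13. In Holstein-Friesian, FABP4 ranged from -1.21 to 0.032, FABP5 from -0.43 to 0.23 and LPL from -0.25 to 0.42. In the mean of the breeds the ranges were -0.65 to 0.55 for FABP4, -0.45 to 0.14 for FABP3, -0.21 to 0.29 for FABP5, -0.057 to 0.29 for LPL, -0.034 to 0.12 for SLC27A4 and -0.40 to 0.0040 for ACSL1. In the difference they were -0.26 to 0.70 for LPL and -0.032 to 0.50 for VLDLR. In the dye check they were -0.038 to 0.0038 for FABP4 and -0.038 to 0.026 for VLDLR.

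The SD of FABP4 over arrays, an alternative chosen after seeing the data, was 2.09 and 1.79 with median centring, 2.48 and 2.28 with processed signals, and 1.64 to 2.46 and 1.20 to 1.98 without 1 replicate. Over all probes, calls ranged from 27 to 1218 in Hereford, 78 to 6678 in Holstein-Friesian, 0 to 950 in the mean and 0 to 6219 in the difference, so counts of calls carry little weight. The cause of these changes was not tested.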

Other observations

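The strongest relation with FABP4 over the 8 arrays was an inverse one. ABCG4, a sterol transporter, had a correlation of -0.98 with it, the lowest of 6692 named genes, whereas the highest was 0.93 and 10 genes exceeded 0.9. ABCG4 was singled out after its values were seen.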
